A study of Mus musculus with 12 samples.

Results

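The miRNAs miR-143 and miR-145 were examined in the retina and sclera of mice with form-deprivation myopia. The members were all mouse miRNA names on the array that began with miR-143 or miR-145, which were 3 of 696 names: mmu-miR-143-3p, mmu-miR-145-5p and mmu-miR-145-3p. The 2 miRNAs that led to this set, mmu-miR-143-3p and mmu-miR-145-5p, were selected on their values in these same arrays, where signals were lower in myopic than in control retina. That contrast is therefore a description of how the members were chosen, with no test, and so is any comparison of the retinal with the scleral change. The scleral change did not enter the choice and was tested. The difference between the tissues contains the retinal values on which the members were chosen, and it is described without a test. In the probe annotation of the scanner files (build mm9), the members lay on chromosome 18, with miR-145-5p probe matches at 61807494 to 61807507, miR-145-3p at 61807526 to 61807546 and miR-143-3p at 61808894 to 61808909.

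The mice were C57BL/6J. Under ketamine and xylazine anesthesia, a frosted diffuser, which blurs the retinal image, was sutured over the right eye at 24 days of age and worn for 10 days, and the untreated left eye of the same animals served as the control. At 34 days of age, RNA was extracted from whole retina or sclera, giving 4 groups (control retina, myopic retina, control sclera and myopic sclera) of 3 pools each, with 3 eyes per pool and 1 single-color array per pool. A pool of eyes carries no information on the spread between single animals, and a contralateral eye shares the animal, the anesthesia and the circulation with the deprived eye. The labels name single mice, numbered 1 to 3, whereas the protocol describes pooled tissue of 3 eyes. The protocol was followed here, and a number was assumed to mark the same pool in both eyes and both tissues. Each number also had its own slide, which held an array of every group. The position on the slide was fixed for a group, and effects of position therefore cannot be told apart from those of the group.

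The hairpins of miR-143 and miR-145 are cut from a shared host transcript, and in the RefSeq gene table (GRCm38.p6) both hairpin genes lay inside the noncoding gene Carmn. Both miRNAs are known for their abundance in vascular smooth muscle, pericytes and fibroblasts. In smooth muscle, serum response factor and myocardin drive their transcription, and they favor the contractile state. In the eye, smooth muscle cells and pericytes surround retinal and choroidal vessels, and fibroblasts make the scleral matrix. In RNA from whole tissue, fewer cells of a type and less RNA per cell cannot be told apart.

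To place the members among the other miRNAs, the 5 miRNAs with the most similar pattern over the 12 arrays were found for each of mmu-miR-143-3p and mmu-miR-145-5p, with their values given after those of the members. The mature sequences of 8 of these 10 miRNAs are shown (RefSeq, GRCm38.p6) to compare their seeds, bases 2 to 8, which are in capitals. The first 4 were matched to miR-143-3p and the last 4 to miR-145-5p. No seed occurred more than 1 time among the 8.
mmu-miR-322-5p: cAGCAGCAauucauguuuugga
mmu-miR-146a-5p: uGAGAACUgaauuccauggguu
mmu-miR-223-3p: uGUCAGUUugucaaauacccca
mmu-miR-199a-5p: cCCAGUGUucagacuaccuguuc
mmu-miR-542-5p: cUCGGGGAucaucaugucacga
mmu-miR-676-3p: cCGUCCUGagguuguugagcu
mmu-miR-2137: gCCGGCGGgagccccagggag
mmu-miR-431-5p: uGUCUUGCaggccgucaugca

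Each miRNA on these arrays is measured by several probes printed as repeated spots, and the total gene signal is the sum of the intensities of those probes that were detected. A probe counts as detected when its signal is more than 3 times its error, and where no probe passes, the miRNA is entered as 0.1. The number of names detected was 372, 362 and 353 in control retina pools 1, 2 and 3, and 399, 401 and 376 in the myopic retina. In the sclera it was 310, 317 and 274 in the control and 317, 290 and 296 in the myopic pools. More names were thus detected on each myopic than on each control retina array. Signals as a whole were lowest in control sclera pool 3, where the 75th percentile over 246 miRNAs found on every array was 276, against 436 to 803 in the other scleral pools. None of the spots reached saturation, and precision is limited by having 3 arrays in a group.

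The 3 members differed in detection. mmu-miR-143-3p, with 2 probes of 10 spots each, was detected on all 12 arrays, and every spot of both probes was well above background on every array. mmu-miR-145-5p, also with 2 probes of 10 spots each, was detected on 9 arrays and on none of the 3 myopic retina arrays. mmu-miR-145-3p, the opposite arm of the miR-145 hairpin, was measured by 4 probes of 5 spots each and was not detected on any array. After the removal of 253 names detected on no array, 443 miRNAs were tested, among them 2 of the 3 members. mmu-miR-145-3p was left out and has no fold change here.

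The total gene signal of mmu-miR-143-3p was 57.4, 67.1 and 125 in control retina pools 1, 2 and 3, and 53.5, 75.1 and 59.2 in the myopic retina. In the sclera it was 429, 513 and 128 in the control pools and 345, 287 and 225 in the myopic pools. The retinal groups overlapped, with control pool 3 the highest of the 6 retinal arrays and the 5 others within 53.5 to 75.1. The scleral groups overlapped as well, and control sclera pool 3, the array with the lowest signals as a whole, was close to control retina pool 3 (128 against 125). Before normalization between arrays, the signal was thus higher in the sclera in each pool, but by little in pool 3 of the control eyes.

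After a floor of 0.5, quantile normalization over the 12 arrays and log2 transformation, mmu-miR-143-3p stood at 5.11, 5.89 and 6.67 in the control retina and at 4.79, 4.75 and 5.25 in the myopic retina. It stood at 9.13, 9.30 and 8.65 in the control sclera and at 9.18, 9.06 and 8.92 in the myopic sclera. On this scale every scleral pool lay above every retinal pool, while the control and myopic pools still overlapped within each tissue. The order of the group means was myopic sclera (9.05 ± 0.13, SD, n = 3), control sclera (9.03 ± 0.34, SD, n = 3), control retina (5.89 ± 0.78, SD, n = 3) and myopic retina (4.93 ± 0.28, SD, n = 3). The 2 scleral groups did not differ beyond their spread.

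The total gene signal of mmu-miR-145-5p was 7.38, 8.01 and 11.6 in the control retina, and it was listed at 0.1 in each of the 3 myopic retina pools. In the sclera it was 77.1, 82.6 and 50.8 in the control pools and 57.0, 51.0 and 36.5 in the myopic pools. All 6 scleral signals were thus above all retinal ones, and the control and myopic sclera overlapped, with pool 3 the lowest in both.

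**Figure D1:**
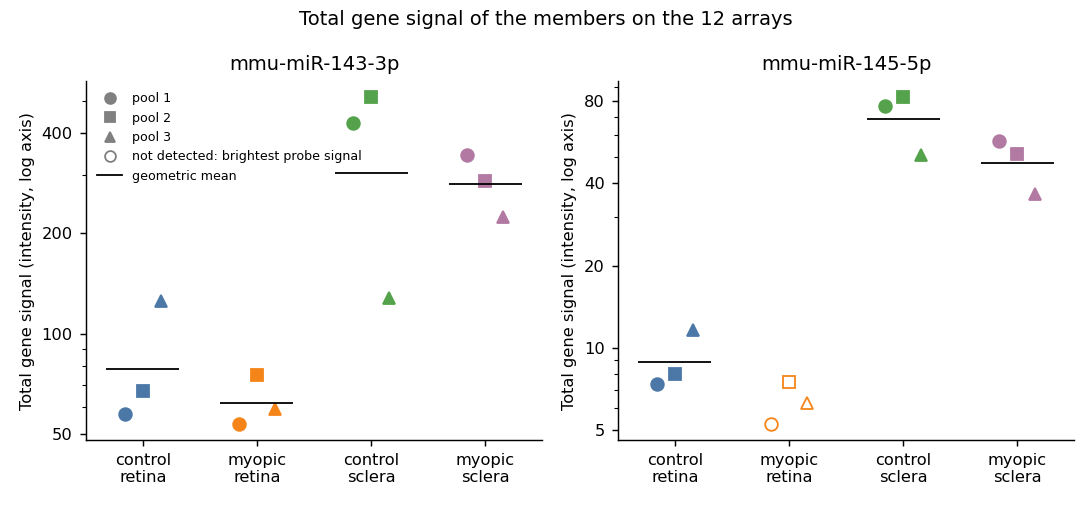
Total gene signal (intensity, log axis) of mmu-miR-143-3p and mmu-miR-145-5p by group, with a marker shape for each pool and a line at the geometric mean where all 3 pools were detected. Open markers show the brightest probe signal where the miRNA was not detected, which was so for mmu-miR-145-5p in all 3 myopic retina pools (5.25, 7.46 and 6.29).

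On the normalized log2 scale, mmu-miR-145-5p stood at 2.04, 2.75 and 3.75 in the control retina and at -1, the floor, in the 3 myopic retina pools. It stood at 7.03, 6.94 and 7.58 in the control sclera and at 6.95, 6.98 and 6.75 in the myopic sclera. The order of the group means was control sclera (7.18 ± 0.35, SD, n = 3), myopic sclera (6.90 ± 0.13, SD, n = 3) and control retina (2.85 ± 0.86, SD, n = 3), followed by the myopic retina without a detected signal. As with miR-143-3p, the 2 scleral groups did not differ beyond their spread. In the authors' log2 values the order was the same, with 1.33, 2.31 and 3.54 in the control retina and -1 in each myopic retina pool.

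The listed value of 0.1 does not mean that the spots were dark. In the myopic retina, the brighter of the 2 probes for mmu-miR-145-5p had a signal of 5.25 with an error of 1.99 in pool 1, 7.46 with an error of 3.05 in pool 2 and 6.29 with an error of 2.26 in pool 3. The ratios of signal to error were 2.64, 2.44 and 2.78, just under the limit of 3. In the control retina, the same probe had signals of 7.38, 8.01 and 11.6 with errors of 2.43, 2.44 and 2.51, and ratios of 3.03, 3.28 and 4.63. Control retina pool 1 was therefore counted as detected at a signal of 7.38, whereas myopic retina pool 2 was not at 7.46. The additive error estimated for myopic retina pool 2 was 4.48, the highest of the 12 arrays, against 2.88 to 3.47 on the other retinal arrays.

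**Figure D2:**
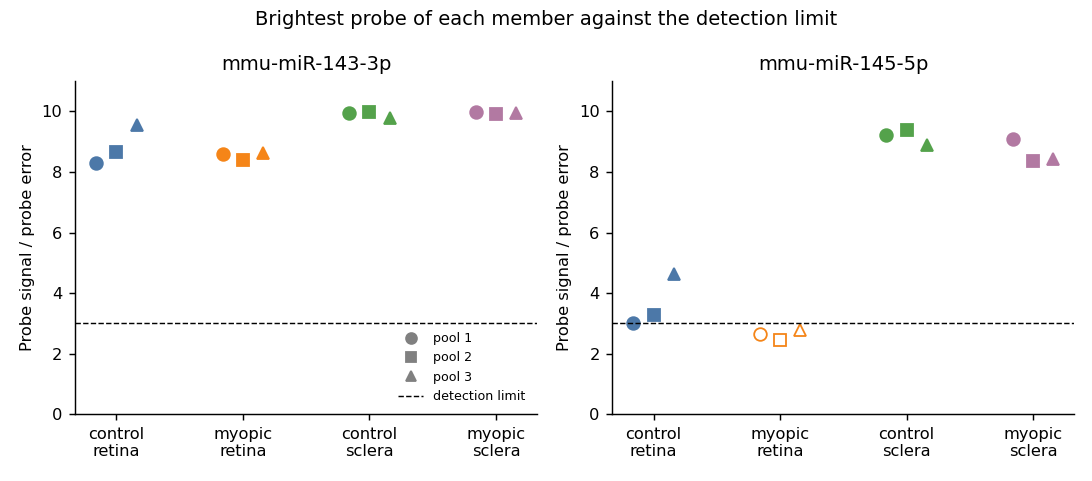
Ratio of signal to error of the brightest probe of mmu-miR-143-3p and mmu-miR-145-5p on each array by group, with the detection limit of 3 as a dashed line and open markers where the miRNA was not detected. For mmu-miR-145-5p the control retina lay at 3.03 to 4.63 and the myopic retina at 2.44 to 2.78, while the scleral arrays lay at 8.36 or above.

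The processed signals of the single spots show the same narrow margin. The mean of the 10 spots of the brighter probe was 10.2, 12.1 and 17.6 in the control retina and 7.92, 12.4 and 9.57 in the myopic retina, with SDs between spots of 2.65 to 4.25. The mean of the dimmer probe was 3.69, 5.41 and 9.58 in the control retina and 4.50, 5.30 and 4.96 in the myopic retina. For both probes the 2 groups overlapped, and control retina pool 3 was the highest array. Spots well above background occurred in the retina only for the brighter probe in control pool 3, in 6 of 10 spots, whereas in the sclera all spots of both probes were well above background.

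**Figure D3:**
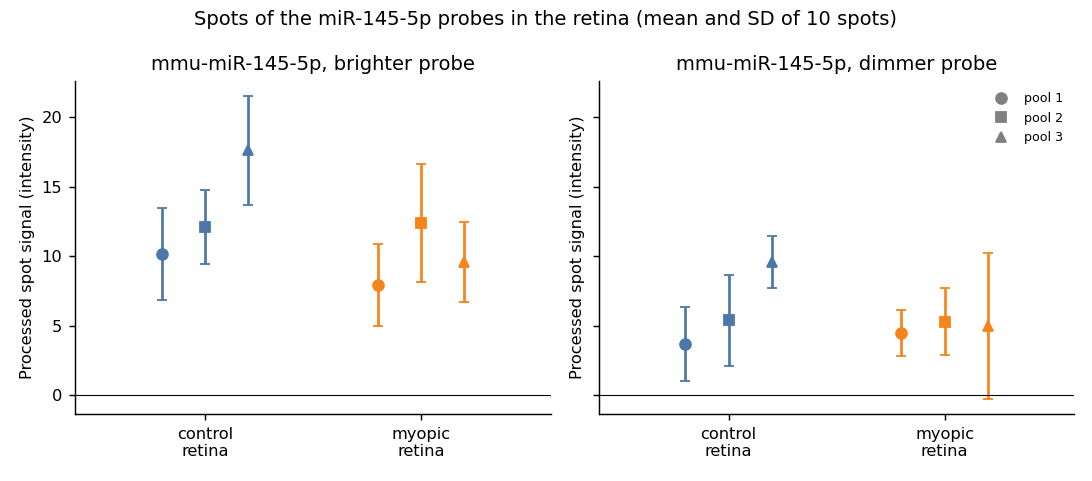
Processed spot signal (intensity) of the brighter and the dimmer mmu-miR-145-5p probe on the retinal arrays, as the mean and SD of 10 spots per array, with a marker shape for each pool. Control and myopic pools overlapped for both probes, and control pool 3 was the highest (17.6 and 9.58).

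In the comparison that chose the members, the fitted log2 difference between myopic and control retina was -0.96 for mmu-miR-143-3p and -3.85 for mmu-miR-145-5p. The median over the 443 miRNAs was -0.12. Since the floor stood in for 3 undetected pools, the value for mmu-miR-145-5p does not measure the size of a change. The arrays were also scaled to the 75th percentile over miRNAs found on every array, with the undetected arrays at the detection limit. On that scale only, the brighter mmu-miR-145-5p probe came out 1.32-fold lower in the myopic retina on average. This is a description and not a minimum, as the control signals were near the limit and their errors were not included. The dimmer probe was under the limit in both groups and gives no fold. With the same scaling mmu-miR-143-3p differed by -0.45, and its differences within pools 1, 2 and 3 were -0.18, -0.22 and -0.94. Of all 443 miRNAs, 0.226% met the call rule used throughout (adjusted p-value under 0.05 and a change of at least 2-fold), which is 1 miRNA, mmu-miR-145-5p itself with its floored values. Nothing is read from this count, as the contrast chose the member. mmu-miR-145-5p was the only 1 of the 696 names detected on all 3 control and on none of the 3 myopic retina arrays. No name showed the reverse. Nothing is read from this either, as the same contrast chose the member and its flags turn on ratios close to the limit.

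The value depended on single pools and on the floor. With control retina pool 3 left out, the difference of mmu-miR-143-3p was -0.57, and with control retina pool 1 left out it was -1.37, while the calls among all miRNAs rose from 1 to 122. With undetected miRNAs at the signal of their brightest probe in place of the floor, a setting chosen after seeing the data, the difference of mmu-miR-145-5p was -1.36 and no miRNA was called.

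In the sclera, neither member differed between deprived and control eyes by the call rule. The log2 difference between myopic and control sclera was 0.03 for mmu-miR-143-3p (SE 0.36, 95% interval -0.77 to 0.83, limma, adjusted p = 1.00) and -0.29 for mmu-miR-145-5p (SE 0.37, 95% interval -1.12 to 0.54, limma, adjusted p = 1.00). The signs within pools 1, 2 and 3 were mixed, at 0.06, -0.24 and 0.27 for mmu-miR-143-3p and at -0.08, 0.04 and -0.83 for mmu-miR-145-5p. The members' count of 0 of 2 stands beside 0% of all 443 miRNAs called by limma, with 13 at an unadjusted p-value under 0.05. The interval of mmu-miR-145-5p includes a 2-fold fall, whereas that of mmu-miR-143-3p excludes 2-fold in both directions but not smaller changes. This exclusion holds for the quantile normalized values only, as the SE of mmu-miR-143-3p was larger in some other settings, at 0.51 without normalization. Both results moved with single pools and with the scaling. With control sclera pool 3 left out, the difference was -0.16 for mmu-miR-143-3p and -0.09 for mmu-miR-145-5p. With control sclera pool 2 left out, it was 0.17 and -0.41 in the same order. With the arrays scaled to the 75th percentile, mmu-miR-143-3p turned to -0.07 and mmu-miR-145-5p differed by -0.49, with -0.27, -0.07 and -1.13 in pools 1, 2 and 3. On that scale the mmu-miR-145-5p values did not overlap, at 6.31 to 7.14 in the control and 6.01 to 6.24 in the myopic sclera. Nothing is read from this, as the share of all 443 miRNAs without overlap is not given here. mmu-miR-145-5p was not called, and the lowest adjusted p-value (limma) over all settings was 0.970.

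Between the tissues, both members were lower in the retina. Averaged over control and myopic eyes, the log2 difference of retina minus sclera was -3.63 for mmu-miR-143-3p, which is 12.4-fold. For mmu-miR-145-5p the fitted value was -6.12, which rests on 3 values at the floor. For a size without the floor, the brighter probe was compared with itself on the scale of the 75th percentile, with undetected arrays at the detection limit. On that scale it was at least 9.88-fold lower in the retina. Before scaling, its signals were 5.25 to 11.6 in the retina and 23.7 to 53.1 in the sclera, which is a smaller difference. The bound therefore holds on that scale only. The fit to processed spot signals, where probes under the detection limit keep their signal down to a floor of 0.5, gave -4.30. Both members were lower in the retina in all 6 pairs of arrays from the same pool and treatment. Of the 443 miRNAs, limma called 60.9% in either direction, 26.2% as lower and 34.8% as higher in the retina, and a lower level in the retina was thus common among miRNAs. Among the 443, 38 miRNAs had a lower fitted difference than mmu-miR-143-3p. Some of these, such as miR-214-3p and mmu-miR-145-5p, had retinal values at the floor, so this place is approximate.

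The tissue difference was also read in each eye. In the control eyes, mmu-miR-143-3p differed by -3.13. The brighter mmu-miR-145-5p probe was past the detection limit on all 6 arrays but close to it in the retina. On the scale of the 75th percentile it was about 10.2-fold lower in the retina. The difference was smaller before scaling, with signals of 7.38 to 11.6 against 31.8 to 53.1 in the sclera. Among all miRNAs in these eyes, limma called 50.6%, with 23% of all lower and 27.5% higher in the retina. In the myopic eyes, mmu-miR-143-3p differed by -4.13. The same mmu-miR-145-5p probe was at least 9.60-fold lower on the scale of the 75th percentile. Before scaling the difference was again smaller, with signals of 5.25 to 7.46 in the retina and 23.7 to 36.1 in the sclera. Of all miRNAs in these eyes, 58.9% were called, 26.4% of all as lower and 32.5% as higher in the retina. Nothing about the members is read from these shares, and whether the eyes differ from each other was not tested. The within-pool differences of mmu-miR-143-3p in pools 1, 2 and 3 were -4.01, -3.42 and -1.97 in the control eyes and -4.40, -4.31 and -3.67 in the myopic eyes, so that the smallest belonged to the control eyes of pool 3.

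The size of the tissue difference moved with the normalization. Without any scaling between arrays it was -2.07 for mmu-miR-143-3p and -4.76 for mmu-miR-145-5p, and the median over all 443 miRNAs was 1.93 in place of 0.40. With normexp background correction and an added constant of 50, the difference of mmu-miR-145-5p was -0.64 and no longer reached 2-fold, while that of mmu-miR-143-3p was -1.50.

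**Figure D4:**
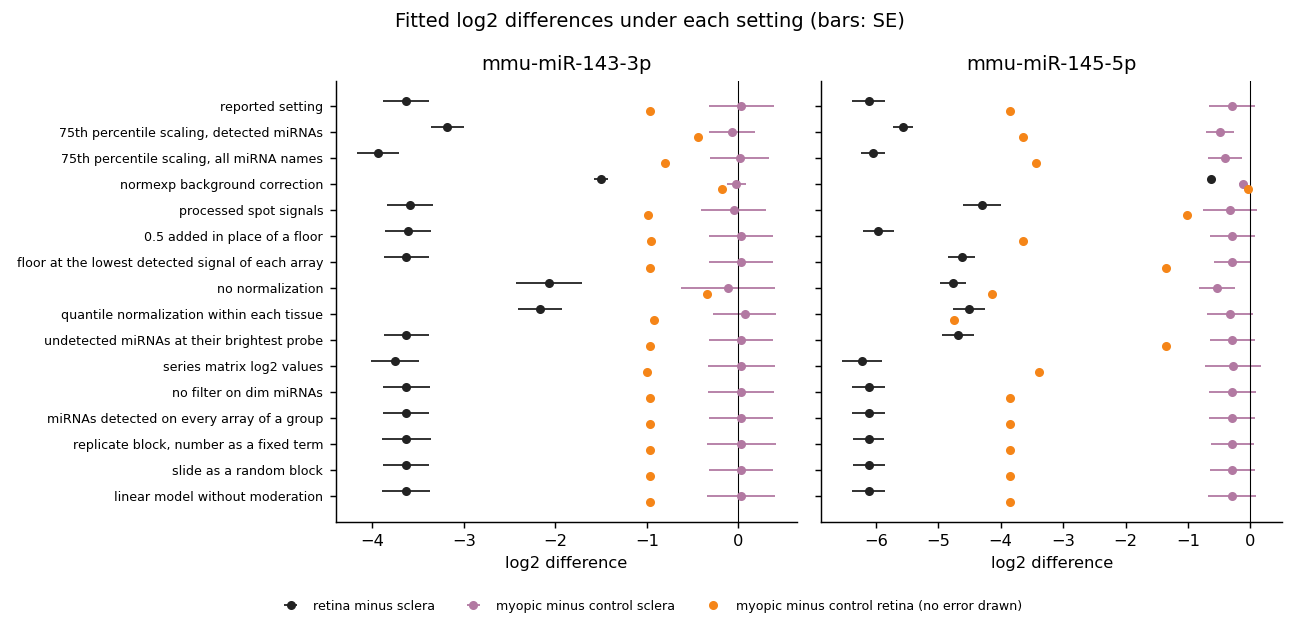
Fitted log2 differences of mmu-miR-143-3p and mmu-miR-145-5p under each processing setting for retina minus sclera over both conditions, myopic minus control sclera and myopic minus control retina, with the SE as bars except for the last. Retina minus sclera stayed below 0 for both members, from -3.94 to -1.50 and from -6.22 to -0.64, whereas the scleral difference of mmu-miR-143-3p lay on either side of 0.

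The miRNAs most like mmu-miR-143-3p by Pearson correlation of the normalized log2 values over the 12 arrays were miR-322-5p (r = 0.997), miR-142-3p (0.995), miR-146a-5p (0.994), miR-223-3p (0.994) and miR-199a-5p (0.993). All 5 were detected on all 12 arrays and were lower in the retina. miR-142-3p and miR-223-3p are known as miRNAs of blood-forming cells and miR-199a-5p as one of mesenchymal cells. Because the arrays fall into 2 tissues, these values mostly reflect the tissue difference, and 15.4% of the 442 other miRNAs had r above 0.95. Within the 6 retinal arrays the same 5 had r of 0.959 to 0.996, whereas within the 6 scleral arrays r ranged from -0.61 for miR-223-3p to 0.80 for miR-142-3p. The likeness within the sclera was thus mixed. The 5 were chosen over arrays that include the retinal ones, and the share of all miRNAs with such r there is not given. Nothing is therefore read from the difference in r between the tissues.

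The miRNAs most like mmu-miR-145-5p were miR-542-5p (r = 0.983), miR-676-3p (0.973), miR-1897-5p (0.972), miR-2137 (0.971) and miR-431-5p (0.971). All 5 were detected on all 12 arrays, and 8.37% of the other miRNAs had r above 0.95. All 10 matched miRNAs had their lowest group mean in the myopic retina, as the pattern they were matched to did. The members themselves correlated at r = 0.962, which made mmu-miR-143-3p number 18 in the order of likeness to mmu-miR-145-5p, a place that was 2 with scaling to the 75th percentile and 69 by Spearman correlation. Within the 6 retinal arrays their r was 0.853, with 3 arrays at the floor for mmu-miR-145-5p, and within the 6 scleral arrays it was -0.67. Both members were chosen as lower in the myopic retina, so nothing is read from their retinal r. In the sclera the pool with the lowest normalized mmu-miR-143-3p, control pool 3, had the highest normalized mmu-miR-145-5p. Both lists changed with the measure, as 0 of the 5 for mmu-miR-143-3p and 2 of the 5 for mmu-miR-145-5p were also among the first 5 by Spearman correlation.

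**Figure D5:**
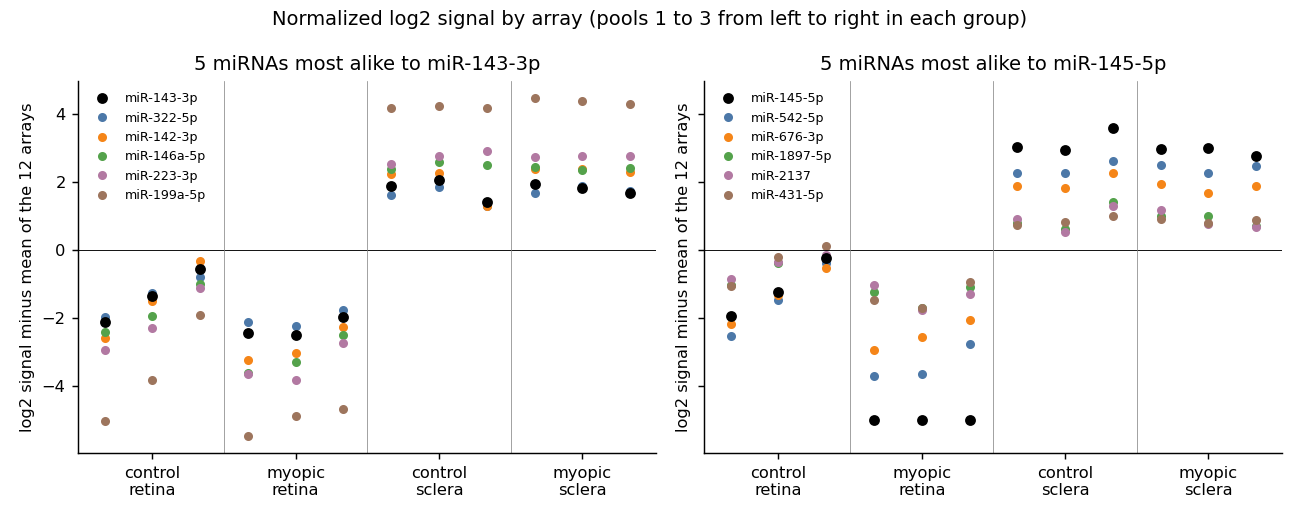
Normalized log2 signal minus the mean of the 12 arrays for mmu-miR-143-3p and mmu-miR-145-5p (black) and for the 5 miRNAs most alike to each (colors), with 1 point per array and pools 1 to 3 from left to right in each group. Both members and their matches were lower in the retina than in the sclera, and the 3 black points of the myopic retina on the right are at the floor.

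Lists of miRNAs known from other cell types were read beside the members, since the dissected tissues hold vessels, blood and neighboring layers. The retina carried its own miRNAs, as all 8 tested names of the photoreceptor and retinal neuron list were called higher there, against 34.8% of all miRNAs. The median log2 difference of the list was 4.16, against 0.40 over all miRNAs. miR-124-3p, a neuronal miRNA and the most abundant of the list, stood at 16.65 in the control retina and at 11.56 in the control sclera. The summed normalized signal of this list in the sclera was 15010, 15366 and 2677 in the control and 11406, 5967 and 12653 in the myopic pools, against 185923 or more in each retinal pool. Neuronal miRNAs were thus measured in every scleral pool, least in control pool 3, and their part in the scleral values was not tested.

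The mesenchymal list (miR-199a, miR-199b and miR-214) differed most strongly in the direction of the members. Of its 5 tested names, 4 were called lower in the retina, against 26.2% of all miRNAs, with a median of -8.59. miR-214-3p was detected on all 6 scleral arrays and on none of the retinal ones and was at least 140-fold lower in the retina, by the same comparison of a probe with itself at the detection limit that serves for all undetected miRNAs here. miR-199b-5p and miR-199a-5p, detected on all 12 arrays, differed by -9.01 and -8.59. The summed signal of the list was 126, 112 and 319 in the control retina and 166, 170 and 167 in the myopic retina, against 26713 to 28458 in the sclera. The fifth name, miR-214-5p, singled out after its values were seen, was not called (0.53) and made up most of the retinal sum in the myopic pools, at 129, 131 and 117, against 91.3, 21.2 and the floor (undetected) in the control retina. The other 4 names together summed to 34.2, 91.1 and 318 in the control and to 36.9, 38.8 and 50.3 in the myopic retina. In the sclera the most abundant name of the list was miR-199a-3p.

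Other lists with more names called lower in the retina than the 26.2% of all miRNAs were those of leukocytes (4 of 6 tested called lower, median -4.51, miR-223-3p at -5.49 and miR-146a-5p at -4.91), striated muscle (5 of 6 called lower, median -4.81, miR-1a-3p at -4.87), surface epithelium and lens (3 of 3, median -3.60, miR-203-3p at -3.60 and miR-184-3p at -2.49) and endothelium (2 of 2, median -2.17, miR-126-5p at -2.63 and miR-126-3p at -1.70). Some names of these lists were at the floor in the retina. miR-133a-5p of striated muscle, undetected in the retina, was at least 7.57-fold lower there, miR-205-5p, an epithelial miRNA detected on 1 of 6 retinal arrays, at least 55.8-fold and miR-155-5p, a leukocyte miRNA detected on 2 of 6, at least 2.96-fold. The erythroid list has only 2 names, of which miR-451 was called lower at -2.02, whereas miR-144-3p, detected on 5 retinal and 3 scleral arrays, was not called. The matrix and fibroblast list did not share this direction, with 4 of 8 called higher, against 34.8% of all miRNAs, and 1 called lower in the retina (median 1.67, miR-29c-3p at 2.74 and miR-29c-5p at 1.99), and miR-21-3p, undetected in the sclera, was at least 1.14-fold higher in the retina. With names detected on at most 1 array of a tissue at such a bound, the median was 0.16 for this list. It was -3.84 for striated muscle and -8.50 for mesenchymal cells, and the other medians stayed as given. The 0.40 over all miRNAs was taken with the floor and without such bounds, so the 0.16 is not directly comparable with it. Within the striated muscle list miR-499-5p also went against the rest and was at least 3.36-fold higher in the retina. Of the pigment cell list, 1 of 2 was called higher, miR-211-5p at 1.44, and miR-204-5p at 0.70 was not called. The members were therefore lower in the retina together with miRNAs known from several other cell types, and smooth muscle itself was not identified by any measurement here.

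Some of these lists shared a high control pool 3 with the members among the retinal arrays. The summed leukocyte signal was 59.8, 118 and 142 in the control retina and 47.3, 50.9 and 64.1 in the myopic retina. That of surface epithelium and lens was 65.4, 1227 and 3598 in the control and 458, 393 and 432 in the myopic retina, and that of striated muscle was 185, 343 and 469 in the control and 223, 246 and 240 in the myopic retina. In pool 1 these last 2 lists were higher in the myopic retina, and the striated muscle sum includes miR-499-5p, which was higher in the retina. Before normalization, mmu-miR-143-3p of pool 1 was 57.4 in the control and 53.5 in the myopic retina. mmu-miR-145-5p was undetected in that myopic pool, so nothing is read from pool 1. Control retina pool 3, the highest retinal array for both members, was the highest also for these 3 lists and for the mesenchymal list with or without miR-214-5p. Of the 2 endothelial names, miR-126-3p stood at 1213, 1155 and 1086 in the control and at 1043, 1155 and 1245 in the myopic retina, with overlap and no pool apart. The dimmer miR-126-5p stood at 9.53, 19.7 and 26.4 in the control and at 7.28, 6.55 and 11.1 in the myopic retina, again with control pool 3 the highest. The median difference between myopic and control retina was -1.29 for the leukocyte, -1.25 for the surface epithelium and lens, -1.14 for the mesenchymal, -0.63 for the striated muscle and -0.54 for the endothelial list. It was -0.01 for the matrix and fibroblast, -0.11 for the erythroid, -0.09 for the pigment cell and 0.00 for the photoreceptor and retinal neuron list, against -0.12 over all miRNAs. No member of these 9 lists was called. miR-214-3p and miR-142-5p were not detected on any retinal array. The part of these cell types in the retinal values of mmu-miR-143-3p and mmu-miR-145-5p was not tested.

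In the sclera, the list medians between myopic and control eyes were small beside these, at 0.06 for the mesenchymal, 0.07 for the matrix and fibroblast, 0.11 for the striated muscle, -0.04 for the leukocyte, -0.09 for the photoreceptor and retinal neuron, -0.20 for the endothelial and -0.21 for the surface epithelium and lens list, with 0.00 over all miRNAs. The pigment cell list stood at -0.62 with 2 names and the erythroid list at 1.31 with 2 names. No member of these lists was called in the sclera.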

How the data were processed

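RNA pools from mouse retina and sclera had been hybridized to 12 Agilent single-color miRNA arrays. The authors deposited the scanner intensity values of each array, made with background subtraction by Feature Extraction (11.0.1.1 per the file headers). The authors also deposited log2 values, which are floored and quantile normalized total gene signals and served here as an alternative.

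Total gene signals were floored at 0.5, quantile normalized over 696 names and 12 arrays and put on the log2 scale. Names detected on no array (253) were left out. The remaining 443 were tested with limma 3.58.1 in R 4.3.3, in 1 fit of 4 groups with 8 residual degrees of freedom, with Benjamini-Hochberg adjustment. A call needed an adjusted p-value under 0.05 and a change of at least 2-fold. Tables and figures used Python 3.11.15, numpy 2.4.6, pandas 2.3.3 and matplotlib 3.10.9. The fit was tested on simulated data.

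For a bound on the fold, each array was scaled to its 75th percentile, and the probe brightest in the brighter tissue was compared with itself. Where it was not past 3 errors in the dimmer tissue, it took the highest of its signal, 3 errors and the lowest detected total gene signal of the array. This comparison was chosen after seeing the data.

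The labels give the same mouse number to the arrays of 1 slide, from which the pairing comes. Over 246 miRNAs, the correlation of deviations from the group means was 0.38, -0.46 and 0.59 for retina pairs and -0.14, -0.16 and -0.00 for sclera pairs.

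Named miRNAs were all miR-143 and miR-145 names, the 5 with the highest Pearson correlation to each of mmu-miR-143-3p and mmu-miR-145-5p, and up to 3 per cell type list with the largest tissue difference. The members and lists were chosen with earlier results of these data known. Alternatives changed the background correction, scaling, floor, normalization, filter, block, test and samples. Placing undetected miRNAs at their brightest probe was added after seeing the data. The sequences of the members are not reported here.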

Additional observations from a re-analysis of the deposited data

How the results depend on the processing

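Under 15 alternative settings, both members stayed lower in the retina than in the sclera over both conditions and in control and myopic eyes, which are given without a test. Only normexp background correction took mmu-miR-145-5p under 2-fold, to -0.64 over both conditions, -0.68 in control eyes and -0.60 in myopic eyes. The calls among all miRNAs fell to 74, 67 and 75 under this setting, which also adds a constant of 50, and the cause was not tested.

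In the sclera, no setting with all 6 scleral arrays gave a call. The difference of mmu-miR-143-3p changed sign to -0.0685 with scaling to the 75th percentile, -0.0219 with normexp, -0.0518 with processed spot signals and -0.11 without normalization, and the cause was not tested.

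For myopic against control retina, 0 miRNAs were called with normexp, with a floor at each array's lowest detected signal, with undetected miRNAs at their brightest probe and with only the 6 retinal arrays, and 2 with the deposited log2 values. mmu-miR-143-3p moved to -0.18 with normexp and to -0.34 without normalization. mmu-miR-145-5p moved to -0.0399 with normexp, -1.01 with processed spot signals, -1.36 with a floor at each array's lowest detected signal, -1.36 with the brightest probe and -4.75 with normalization within each tissue. Of the 5 miRNAs most like mmu-miR-143-3p, 0 stayed with Spearman correlation and 1 with scaling to the 75th percentile, and of those most like mmu-miR-145-5p, 2 and 1 stayed.

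With 1 array left out, the calls ranged from 0 to 1 in the sclera, 1 to 122 in the retina, 260 to 273 between the tissues over both conditions, 191 to 224 in control eyes and 249 to 269 in myopic eyes. For mmu-miR-143-3p the difference ranged from -0.16 to 0.17 in the sclera, -1.37 to -0.57 in the retina, -3.75 to -3.48 between the tissues over both conditions, -3.45 to -2.78 in control eyes and -4.34 to -4.04 in myopic eyes. For mmu-miR-145-5p it ranged from -0.41 to -0.09, -4.13 to -3.45, -6.26 to -5.92, -4.67 to -4.00 and -8.05 to -7.70 in the same order.

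A paired fit entered the mouse number as a replicate block. Its calls among all miRNAs were 0 in the sclera and 1 in the retina. Between the tissues they were 269 over both conditions, 224 in control eyes and 262 in myopic eyes. Neither member was called in the sclera in this fit. The other comparisons contain the retinal values that chose the members, so nothing is read for the members there.

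Limits are the 3 pools in a group, the slide position that goes with the group, and the signal over background: in the retina the brighter mmu-miR-145-5p probe lay between 2.44 and 4.63 times its error, around the detection limit of 3. Undetected values sit at a floor, which sets the size of fitted changes. The RNA came from whole tissue, so that cell numbers and RNA per cell were not separated.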

Other observations

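mmu-miR-145-3p was not detected on any array, but on slide 2 a single spot of 1 of its 4 probes was well above background on 3 of the 4 arrays, with processed signals of 75.3, 35.8 and 18.7. On each of these 3 arrays, 1 spot of that probe was flagged as an outlier among its repeated spots. The probe signals there were 0.68, 0.50 and 0.03, below their errors, so this is not read as signal of the miRNA.

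Signals also varied between arrays of a group. The 75th percentile over 246 miRNAs found on every array was 1063, 1088 and 1122 in the control retina and 1119, 1414 and 1024 in the myopic retina.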
